A study of Danio rerio with 26 samples.

Results

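The D-box factors are 2 related families of basic leucine zipper transcription factors: the NFIL3 repressors and the activators TEF, DBP and HLF. Genes were chosen by symbol from a list of 10 names, and 9 of those names matched 10 of the 32105 genes in the count tables. The repressors found were nfil3 (listed as NFIL3, ENSDARG00000042977), nfil3-4, nfil3-5 (ENSDARG00000094965) and nfil3-6 (ENSDARG00000087188). The activators found were tefa (ENSDARG00000039117), tefb, dbpa, dbpb, hlfa and a further gene listed as HLF without a copy letter (ENSDARG00000061011). The name nfil3-2 matched no symbol and is not analysed here. Expression passed the filter on low counts for 9 of the 10 genes. The exception was nfil3-4, which had at least 1 count in 13 of 26 libraries, no more than 2 counts in any library and 18 counts in all, so it was not tested.

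D-boxes are short promoter elements at the output of the circadian clock. The PAR bZIP factors TEF, DBP and HLF activate transcription from them, NFIL3 proteins compete for the same sites and repress, and genes of both families are themselves clock-controlled in vertebrates. In zebrafish, whose tissues sense light directly, D-boxes also carry the response of genes such as per2 and a DNA photolyase to light, and tefa is itself induced by light. Teleosts keep duplicated copies of TEF, DBP and HLF and an expanded NFIL3 family.

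Brain RNA was sequenced from male zebrafish labelled with rotenone, a plant compound that blocks mitochondrial complex I. The groups were 7 libraries of fish aged 3 years at 37.5 nM, strain AB JxTu Tg(flk:mCherry), 9 of fish aged 1 year at 37.5 nM, strain AB JxTu, and 10 of fish aged 1 year at 3.75 nM, strain AB JxTu. Every library carries a rotenone label, so no untreated level was measured, and strain moves with age. Counts of the 3.75 nM libraries were deposited in a separate table, so concentration and table cannot be told apart. Each title has a zebrafish number of its own, the labels mention no pooling, and the duration of exposure and the hour of sampling are not stated in the labels. The title numbers fall into a first run, 163 to 181 with 12 libraries, and a second run, 189 to 202 with 14 libraries. Both runs hold fish of every group, and the labels do not say what separates them. In the first run the 3.75 nM libraries are numbered 163 to 167. The 37.5 nM libraries there are 174 to 177 (1 year) and 178 to 181 (3 years), with no library between 167 and 174. In the second run they are 189 to 193 (3.75 nM), 194 to 197 (3 years) and 198 to 202 (1 year, 37.5 nM). Within a run, group and stretch of title numbers thus cannot be told apart. Whole brains were measured in bulk, where fewer cells of a type and less RNA per cell cannot be told apart.

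Library totals lay between 20.6 and 36.0, in units of 1000000 counts, and levels are given as CPM, counts per 1000000, with TMM library sizes. All 11 neuron markers and 13 of 15 glia markers had a median of at least 10 CPM. In 9 libraries a list of eye and pineal, muscle, skin or pituitary genes scored high. Its mean log2 CPM lay more than 1.5 log2 units above the median library. These 9 libraries include replicates 1, 3, 4 and 5 of the 3.75 nM group. Leaving them out keeps only replicate 2 of that group in the first run, so it also changes the run makeup. Among the D-box factors, replicate 6 of the 3.75 nM group, a library of the second run, had extreme values for some genes. It had the lowest level of all 26 libraries for nfil3 (13.3 CPM) and nfil3-5 (57.3 CPM), the lowest of its group for nfil3-6 (35.0 CPM), and the highest tefa of the second run (287.6 CPM). That tefa value lay within the range of the whole 3.75 nM group, 163.8 to 368.0 CPM. Dixon's criterion flagged no value of replicate 6, but each set it was applied to held both runs of a group. For nfil3-5 the other second-run libraries at 3.75 nM had 195.9 to 230.9 CPM. The first-run libraries, at 87.6 to 152.2 CPM, lay between these and replicate 6. The criterion was not applied within a run, so it cannot say whether replicate 6 stood apart there. On the scale of the list scores, the clock drivers (CLOCK, BMAL and npas2 genes) stood at -0.41 in replicate 6. The other second-run libraries at 3.75 nM had 0.070 to 0.39. Its glucocorticoid responsive list stood at -0.79, against 0.21 to 0.58. Its eye and pineal score, 1.485, lay just under the cut of 1.5, so fits without high tissue scores kept it. Several values are also given without this library, which was singled out after its values were seen.

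At 1 year, 37.5 nM was compared with 3.75 nM. None of the 9 D-box factors passed edgeR's quasi-likelihood test at a Benjamini-Hochberg adjusted p under 0.05, where 10 of 19691 genes (0.0508%) did. At an unadjusted p under 0.05 there were 4 of 9, where 1821 of 19691 genes (9.25%) were. At the adjusted threshold limma voom called none of the 9, and 13 genes in all. By DESeq2 there were 2 of the 9, nfil3 and nfil3-5, and 54 genes in all. Those 2 repressors were the D-box factors whose groups did not overlap in CPM, against 7 of 19691 genes (0.0355%) over the whole table.

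The founding repressor nfil3 had 28.5, 32.3 and 38.2 CPM as the lowest, median and highest value of the 9 libraries at 37.5 nM. At 3.75 nM the 10 libraries had a lowest value of 13.3, a median of 23.9 and a highest of 28.2 CPM. Every 37.5 nM library thus lay above every 3.75 nM library, by a narrow margin. The log2 fold change was 0.51 (SE 0.11), with an edgeR adjusted p of 0.170 and rank 19 of all genes by p. With the run as a covariate it was 0.55 with an edgeR adjusted p of 0.034, and by DESeq2 the adjusted p was 0.0060; over all alternatives it ran from 0.0060 to 0.443. Without replicate 6 of the 3.75 nM group the log2 fold change was 0.45 (edgeR adjusted p = 0.058). Within the second run it was 0.80, and within the first run it was 0.29.

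The copy nfil3-5 differed most. It had 237.7 CPM as its lowest, 282.8 as its median and 405.3 as its highest value at 37.5 nM, and a lowest of 57.3, a median of 146.1 and a highest of 230.9 CPM at 3.75 nM. The groups again did not overlap. The log2 fold change was 0.96 (SE 0.20), a 1.94-fold higher fitted level at 37.5 nM, with an edgeR adjusted p of 0.149 and rank 18. By DESeq2 the adjusted p was 0.0016, in one edgeR fit over all 26 libraries it was 0.046, and over all alternatives it ran from 0.0016 to 0.443. Without replicate 6 of the 3.75 nM group the log2 fold change was 0.86 (edgeR adjusted p = 0.064). Within the second run it was 0.79, and within the first run it was 1.18.

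**Figure D1:**
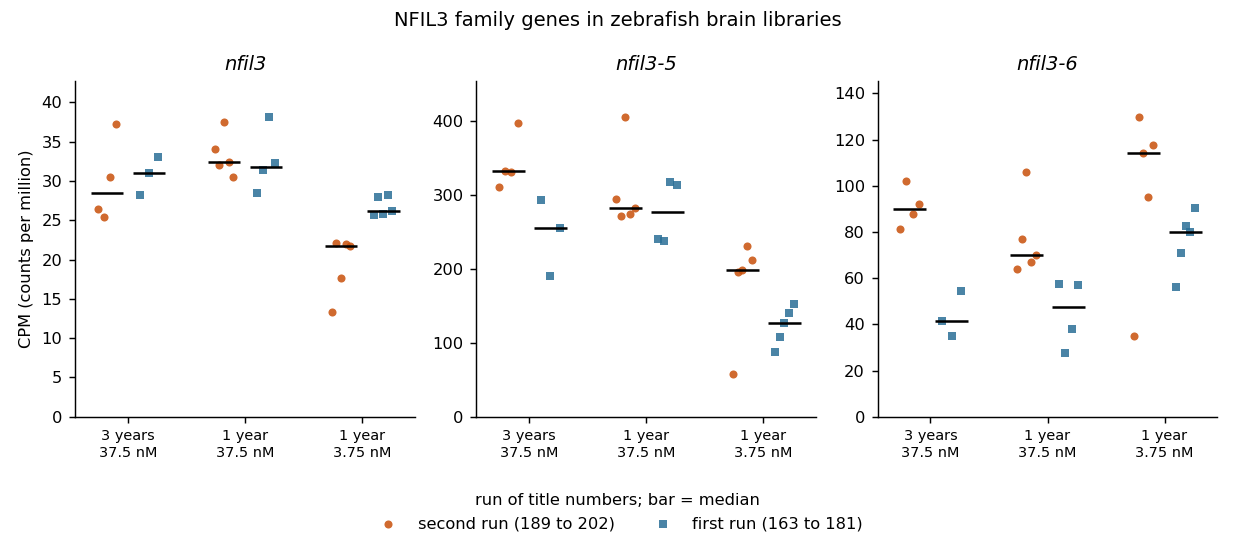
CPM of nfil3, nfil3-5 and nfil3-6 (vertical axes) in every library of the 3 groups (horizontal axis), with circles for the second and squares for the first run of title numbers and a bar at each median. For nfil3 and nfil3-5 every 1 year library at 37.5 nM lies above every library at 3.75 nM; the lowest nfil3-5 point, 57.3 CPM, is replicate 6 of the 3.75 nM group.

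The copy nfil3-6 did not share this. Its lowest, median and highest values were 27.5, 63.8 and 105.9 CPM at 37.5 nM, against 35.0, 86.5 and 129.8 CPM at 3.75 nM. The groups overlapped widely, and the log2 fold change of -0.48 (SE 0.23) did not pass (edgeR adjusted p = 0.546). In the order of RefSeq protein-coding genes, nfil3-6 stands directly beside nfil3-2, and nfil3-5 stands near nfil3-3 with 1 gene between. The sequences of the copies were not compared, and no label says how reads that match more than 1 copy were counted. Levels of the numbered NFIL3 copies, nfil3-5 included, are uncertain to that extent.

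Among the activators the log2 fold changes lay between -0.39 for tefa (SE 0.17) and 0.29 for hlfa (SE 0.15), and none passed the edgeR test (adjusted p from 0.523 to 0.994). The gene tefa had 150.4, 198.8 and 271.9 CPM as lowest, median and highest at 37.5 nM, and 163.8, 292.2 and 368.0 CPM at 3.75 nM. For dbpa these values were 14.6, 23.7 and 39.9 CPM at 37.5 nM, against 25.1, 31.0 and 47.4 CPM at 3.75 nM. All 6 activators overlapped between the concentrations. Within runs, the tefa log2 fold change was -0.31 in the second run and -0.36 in the first. With the run as a covariate it was -0.34 (SE 0.084, edgeR adjusted p = 0.150).

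The count of D-box factors whose concentrations did not overlap differed between the runs. In the second run alone, with 5 libraries at each concentration, nfil3 and nfil3-5 were the 2 of 9 D-box factors that did not overlap, where 411 of 19691 genes (2.09%) did not. In the first run alone, with 4 libraries at 37.5 nM and 5 at 3.75 nM, 6 of 9 did not overlap, where 643 genes (3.27%) did not. Both repressors again lay higher at 37.5 nM, and tefa, tefb, dbpa and dbpb lay lower. Within each run the concentrations also held separate stretches of title numbers, and the part of either in these counts was not tested.

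The DBP copies, activators named for the albumin promoter, are given as an example. In the second run dbpa had 39.9, 30.4, 23.7, 32.5 and 28.5 CPM at 37.5 nM, against 35.4, 47.4, 29.2, 29.2 and 26.2 CPM at 3.75 nM. In the first run it had 18.7, 18.6, 17.7 and 14.6 CPM at 37.5 nM, against 32.8, 26.1, 33.7, 25.1 and 33.7 CPM at 3.75 nM. The log2 fold change of dbpa was -0.090 among second-run libraries and -0.79 among first-run libraries. For dbpa the concentrations were thus mixed in the second run and separate in the first. For dbpb they were also separate in the first run, with a log2 fold change of -0.37 (SE 0.07). In the second run dbpb overlapped, with a log2 fold change of 0.25 and all 5 libraries at 37.5 nM above the 3.75 nM median. Tested directly, the log2 fold change in the second run minus that in the first was 0.62 for dbpb (SE 0.17, p = 0.0017 by edgeR, adjusted p = 0.606), 0.71 for dbpa (adjusted p = 0.607) and 0.52 for nfil3 (adjusted p = 0.611). Of the 9 D-box factors, 3 had an unadjusted p under 0.05 for this interaction, and none passed. None of the 20616 genes tested passed either, and 1534 (7.44%) had an unadjusted p under 0.05.

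Among the other clock genes, those higher at 37.5 nM by edgeR were BMAL1 (ENSDARG00000006791), the partner of CLOCK in the activating limb, with a log2 fold change of 0.44 (adjusted p = 0.038), and the cryptochromes cry3b (0.48, adjusted p = 0.016) and cry4 (0.40, adjusted p = 0.047). Lower was BHLHE41, a clock repressor, at -0.43 (adjusted p = 0.016). None of 10 nuclear receptor genes passed, and the smallest p-values there were those of NR1D2 (-0.91, adjusted p = 0.102), a repressor of BMAL genes, and rorcb (0.96, adjusted p = 0.187), of the activating ROR family. None of 12 glucocorticoid responsive genes passed either, with the period gene PER1 at -0.82 (ENSDARG00000012499, adjusted p = 0.240) and -0.50 (ENSDARG00000056885, adjusted p = 0.516). None of 18 tested genes of the light and D-box responsive list passed, and their median log2 fold change was -0.14 against -0.0058 over all genes. The smallest p-values of that list were those of NAMPT (-0.19, adjusted p = 0.368), an enzyme of NAD synthesis, and cry-dash (-0.46, adjusted p = 0.526). The mean level of the 6 clock driver genes (CLOCK, BMAL and npas2 genes), set against the median library on the log2 scale, ran in the second run from 0.0010 to 0.41 at 37.5 nM, and from -0.41 to 0.39 at 3.75 nM. In the first run it ran from -0.20 to -0.013 at 37.5 nM, and from -0.55 to -0.30 at 3.75 nM, with no overlap. There too concentration and stretch of title numbers cannot be told apart. The part of these clock gene levels in the D-box factor values was not tested.

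At 37.5 nM, fish aged 3 years were compared with fish aged 1 year, using the same 9 libraries that the concentration comparison used. None of the 9 D-box factors passed by edgeR, by DESeq2 or by limma voom, where 1549 of 19887 genes (7.79%) passed edgeR's adjusted threshold. By edgeR without the run as a covariate, none of the 9 had an unadjusted p under 0.05, where 5087 genes (25.6%) did. The log2 fold changes lay between -0.28 for dbpa (SE 0.19, 95% interval -0.68 to 0.12) and 0.19 for tefa (SE 0.16, 95% interval -0.15 to 0.52). The interval was widest for nfil3-6, from -0.38 to 0.71 around 0.17. All 9 genes overlapped between the ages. With the run as a covariate edgeR again called none of the 9, and the smallest adjusted p-values were those of tefb and tefa. The log2 fold change was then -0.20 for tefb (SE 0.065, edgeR adjusted p = 0.062) and 0.21 for tefa (SE 0.072, adjusted p = 0.076).

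By value, nfil3-5 had 190.1, 310.0 and 397.1 CPM as lowest, median and highest at 3 years, against 237.7, 282.8 and 405.3 CPM at 1 year. For tefb, an activator, these values were 102.9, 127.7 and 154.3 CPM at 3 years, against 110.4, 149.4 and 180.3 CPM at 1 year. For hlfa they were 90.2, 106.5 and 113.3 CPM at 3 years, against 65.3, 105.8 and 128.6 CPM at 1 year. The medians of nfil3-5 and hlfa lay close together at the 2 ages, and the tefb median was lower at 3 years within overlapping ranges.

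The age difference of dbpb changed sign between the runs. In the second run its log2 fold change was -0.41, with 42.9, 45.2, 37.7 and 39.1 CPM at 3 years, against 64.1, 55.5, 42.6, 61.1 and 48.5 CPM at 1 year. In the first run it was 0.23, with 39.5, 35.1 and 45.0 CPM at 3 years, against 36.8, 34.1, 33.3 and 32.1 CPM at 1 year. Neither passed within its run (edgeR adjusted p = 0.0786 in the second run and 0.413 in the first). For dbpb the log2 fold change in the second run minus that in the first was -0.63 (SE 0.17, p = 0.0019 by edgeR, adjusted p = 0.586). For dbpa it was -0.48 (p = 0.046 by edgeR, adjusted p = 0.656), with age differences of -0.46 in the second run and 0.032 in the first. These were the 2 of 9 D-box factors at an unadjusted p under 0.05 for this interaction, where 1580 of 21047 genes (7.51%) were. None of the 21047 genes passed.

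With age, 2 of 12 period and cryptochrome genes, 1 of 10 nuclear receptors and 2 of 18 light and D-box responsive genes passed. PER2 stands in both the period and the light lists. Of 12 glucocorticoid responsive genes 1 passed, where 7.79% of all genes did. PER2, a light-induced period gene, was lower at 3 years (log2 fold change -0.34, edgeR adjusted p = 0.0065), as were cry3a (-0.15, adjusted p = 0.034) and POR (ENSDARG00000055092), an electron donor to cytochrome P450 enzymes (-0.28, adjusted p = 0.037). The zinc finger gene ZBTB16 of the glucocorticoid responsive list was lower too (-0.65, adjusted p = 0.035). The NR1D-type receptor nr1d4b was higher (0.51, adjusted p = 0.025). No clock driver passed, with 1 CLOCK copy (ENSDARG00000011703) at 0.53 (adjusted p = 0.182) and BMAL1 (ENSDARG00000006791) at -0.07 (adjusted p = 0.369), and no gene of the other clock regulators did, with prok2 at -1.32 (adjusted p = 0.059) and ciarta at -0.61 (adjusted p = 0.116). In the same comparison 11 of 20 microglia and macrophage markers and 7 of 16 lymphocyte and granulocyte markers rose, and the part of these cells in the D-box factor values was not tested.

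**Figure D2:**
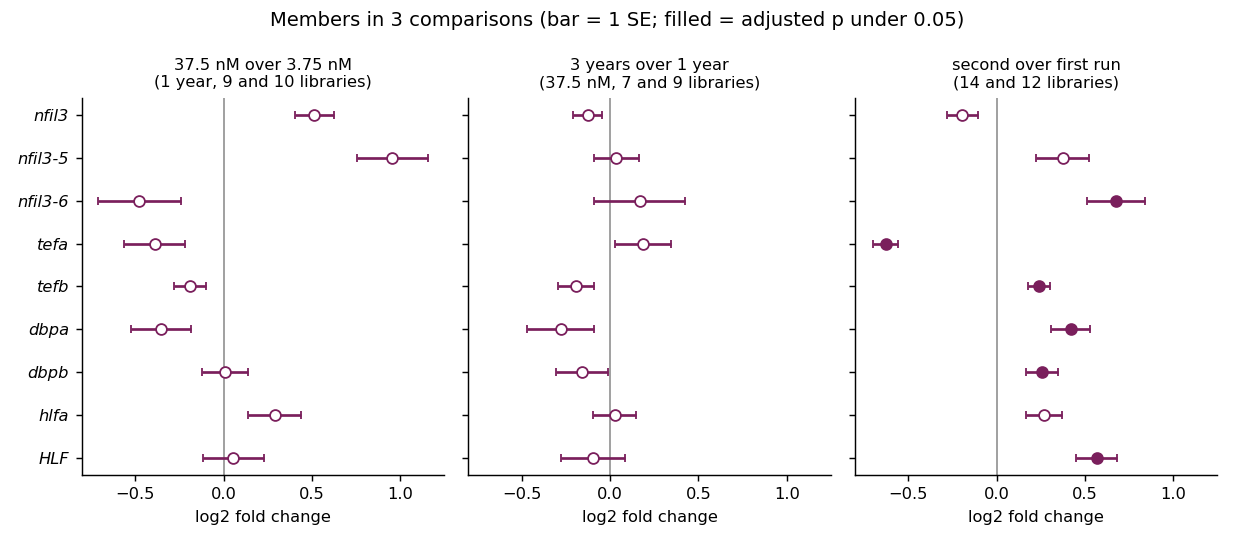
Log2 fold change (horizontal axes, bars of 1 SE) of the 9 tested D-box factors for 37.5 over 3.75 nM at 1 year, 3 years over 1 year at 37.5 nM, and second over first run of title numbers; filled points have an edgeR adjusted p under 0.05. No point is filled in the first 2 panels, and 6 are filled in the third, with tefa at -0.63 as the one filled point below 0.

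The runs of title numbers were compared over all 26 libraries with the group as a covariate. By edgeR, 6 of the 9 D-box factors passed, where 4661 of 20645 genes (22.6%) did. In the second run 5 of 9 were higher, where 11.4% of genes were, and 1 of 9, tefa, was lower, where 11.2% were. DESeq2 called 8 of 9, with nfil3-5 and hlfa added, and limma voom 5 of 9, without dbpb. The shares over all genes in those 2 fits are not given here. Without replicate 6 of the 3.75 nM group edgeR also called 8 of 9, with the same 2 added, and 4434 genes in all. The median log2 fold change of the 9 was 0.27, against -0.0096 over all genes.

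The light-inducible activator tefa was the one D-box factor that was lower in the second run and passed. At 3 years it had 206.7, 165.5, 205.4 and 221.8 CPM in the second run, against 263.6, 260.4 and 308.9 CPM in the first. At 1 year and 37.5 nM it had 153.0, 150.4, 163.9, 152.1 and 198.8 CPM in the second run, against 271.9, 254.8, 245.0 and 254.5 CPM in the first. At 3.75 nM it had 287.6, 163.8, 210.7, 175.2 and 193.7 CPM in the second run, against 308.2, 368.0, 333.0, 342.3 and 296.8 CPM in the first. Within each group the runs did not overlap, and across groups the 287.6 CPM of replicate 6 was the one second-run value above the lowest of the first run, 245.0 CPM. The log2 fold change was -0.63 (SE 0.07), a fitted level of 0.647 times that of the first run, with an edgeR adjusted p of 5.13e-06 and rank 18 of all genes. Fitted within groups it was -0.50 at 3 years, where it did not pass (edgeR adjusted p = 0.110), and -0.65 at 1 year and 37.5 nM (adjusted p = 0.019). At 3.75 nM it was -0.69 (adjusted p = 0.045), or -0.84 without replicate 6 (adjusted p = 0.0079).

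Its duplicate tefb went the other way, with a log2 fold change of 0.24 (SE 0.06, edgeR adjusted p = 0.0081). It had 127.7, 156.3 and 219.0 CPM as lowest, median and highest in the second run, against 102.9, 144.8 and 174.3 CPM in the first. The runs overlapped across groups and were separate within the 3 year group.

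The DBP copies also rose in the second run, dbpa by a log2 fold change of 0.42 (SE 0.11, edgeR adjusted p = 0.0087) and dbpb by 0.26 (SE 0.09, adjusted p = 0.041). Both rises were uneven over the groups. Within 1 year fish at 37.5 nM they were 0.83 for dbpa and 0.67 for dbpb (edgeR adjusted p = 0.037 each) and the runs did not overlap. At 3.75 nM they were 0.13 for dbpa and 0.05 for dbpb, and at 3 years 0.33 for dbpa and 0.02 for dbpb, with no call. The dbpb call was lost in 12 of 26 fits that each left out a single library, with adjusted p up to 0.071, and by limma voom (adjusted p = 0.051).

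Of the HLF pair, the gene listed as HLF rose by 0.57 (SE 0.12, edgeR adjusted p = 0.0013), with 17.1, 21.7 and 27.8 CPM as lowest, median and highest in the second run, against 9.88, 15.0 and 23.2 CPM in the first. Its relative hlfa had 73.2, 108.6 and 128.6 CPM in the second run, against 57.0, 81.5 and 125.5 CPM in the first, and its log2 fold change of 0.27 (SE 0.10) did not pass by edgeR (adjusted p = 0.058). It passed by DESeq2 (adjusted p = 0.034), and by edgeR without replicate 6 of the 3.75 nM group (0.30, adjusted p = 0.045). Both genes overlapped between the runs across groups.

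**Figure D3:**
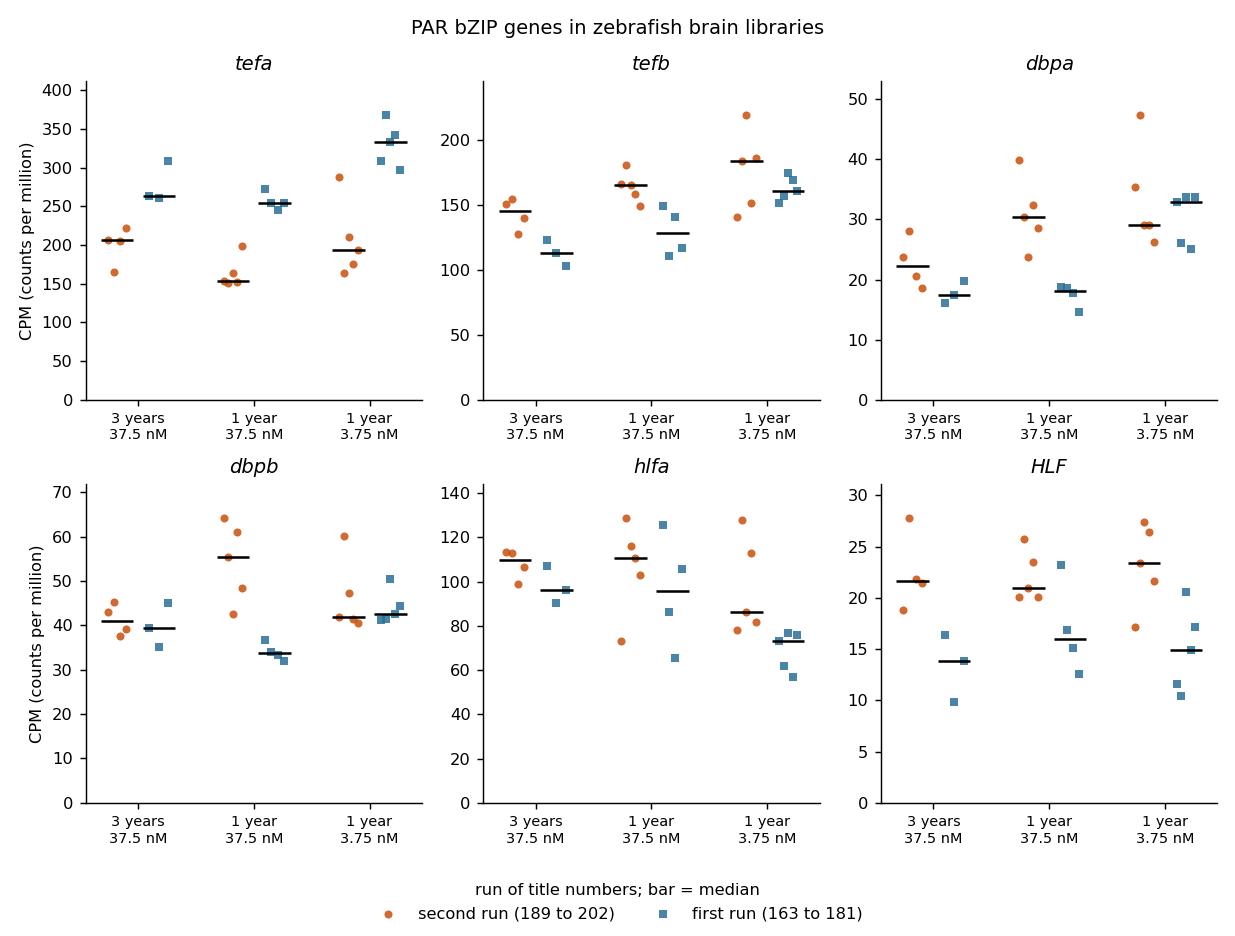
CPM (vertical axes) of the 6 activators tefa, tefb, dbpa, dbpb, hlfa and HLF in every library of the 3 groups (horizontal axis), with circles for the second and squares for the first run of title numbers and a bar at each median. The tefa circles lie below the squares of their group, and the dbpa and dbpb runs separate at 1 year and 37.5 nM.

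Among the repressors, nfil3-6 rose in the second run by 0.67 (SE 0.16, edgeR adjusted p = 0.0049). At 3 years it had 81.2, 102.2, 87.9 and 92.0 CPM in the second run, against 41.5, 35.1 and 54.3 CPM in the first. At 1 year and 37.5 nM it had 63.8, 76.8, 105.9, 67.2 and 70.2 CPM in the second run, against 57.7, 27.5, 38.1 and 57.1 CPM in the first. The runs did not overlap in either 37.5 nM group. At 3.75 nM the second run held both the lowest value, 35.0 CPM in replicate 6, and the highest, 129.8 CPM, and the log2 fold change was 0.36, or 0.57 without that library.

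The other tested repressors did not pass between runs by edgeR over all 26 libraries. For nfil3-5 the log2 fold change was 0.37 (SE 0.15, edgeR adjusted p = 0.073). It passed by DESeq2 (0.38, adjusted p = 0.042), and by edgeR without replicate 6 of the 3.75 nM group (0.46, adjusted p = 0.0032). Within the 3.75 nM group it was 0.53, and without replicate 6 it was 0.76 with an edgeR adjusted p of 0.045. For nfil3 it was -0.19 (SE 0.09, adjusted p = 0.109), with -0.48 at 3.75 nM, where the runs did not overlap (-0.37 without replicate 6), 0.03 at 1 year and 37.5 nM, and -0.07 at 3 years.

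Counted within groups, the runs did not overlap for 5 of 9 D-box factors at 3 years, where 17.4% of genes did not. They did not overlap for 4 of 9 at 1 year and 37.5 nM, where 6.68% of genes did not, and for 3 of 9 at 3.75 nM, where 5.68% did not. Of these, tefa was common to all 3 groups. By edgeR, 9 of 15 muscle and 5 of 17 eye and pineal markers were lower in the second run. Their median log2 fold changes were -1.63 and -1.25. Muscle scores were highest in replicate 4 of each 1 year group (4.36 at 37.5 nM, 3.74 at 3.75 nM), both first-run libraries. Median muscle scores were higher in the second run: 0.25 against -0.14 at 1 year and 37.5 nM, 0.35 against -0.061 at 3.75 nM. At 3 years they were -0.24 against -0.78. From first to second run, median eye and pineal scores went from 1.02 to -0.17 at 3.75 nM. They went from -0.16 to 0.45 at 1 year and 37.5 nM, and from -0.034 to -0.058 at 3 years. Of 11 neuron markers 4 were higher and none lower, with a median of 0.081, and of 14 tested glia markers 3 were higher and 1 lower, with a median of 0.061. The part of these markers in the D-box factor values was not tested. Without the 9 libraries with high tissue scores, tefa was at -0.62 (edgeR adjusted p = 0.0072) and nfil3-6 at 0.97 (adjusted p = 0.026). HLF was at 0.72 (adjusted p = 0.012) and dbpa at 0.47 (adjusted p = 0.032), while tefb (0.29, adjusted p = 0.066) and dbpb (0.25, adjusted p = 0.177) no longer passed.

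Genes of the light and D-box responsive list split between the runs, with 5 higher and 6 lower of 18 tested by edgeR and a median of -0.09. Lower with tefa in the second run were cry5, a light-induced photolyase (log2 fold change -0.95, adjusted p = 1.19e-05), NEIL1, a DNA glycosylase (-0.84, adjusted p = 1.30e-05), and cry-dash, a photolyase relative (-0.65, adjusted p = 0.00052). The nucleotide excision repair genes DDB2 (-0.55, adjusted p = 0.0040) and XPC (-0.33, adjusted p = 0.00090) and 1 of the CRY1 copies (ENSDARG00000045768, -0.25, adjusted p = 2.21e-05) were lower as well. Higher were the deubiquitinase gene usp2b (0.68, adjusted p = 0.0011), USP2 (0.45, adjusted p = 0.024), 1 PDXK copy (ENSDARG00000036546, 0.65, adjusted p = 0.0032), the other CRY1 copy (ENSDARG00000011583, 0.30, adjusted p = 0.045) and NAMPT (0.15, adjusted p = 0.036). PER2 did not pass (-0.13, adjusted p = 0.136).

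**Figure D4:**
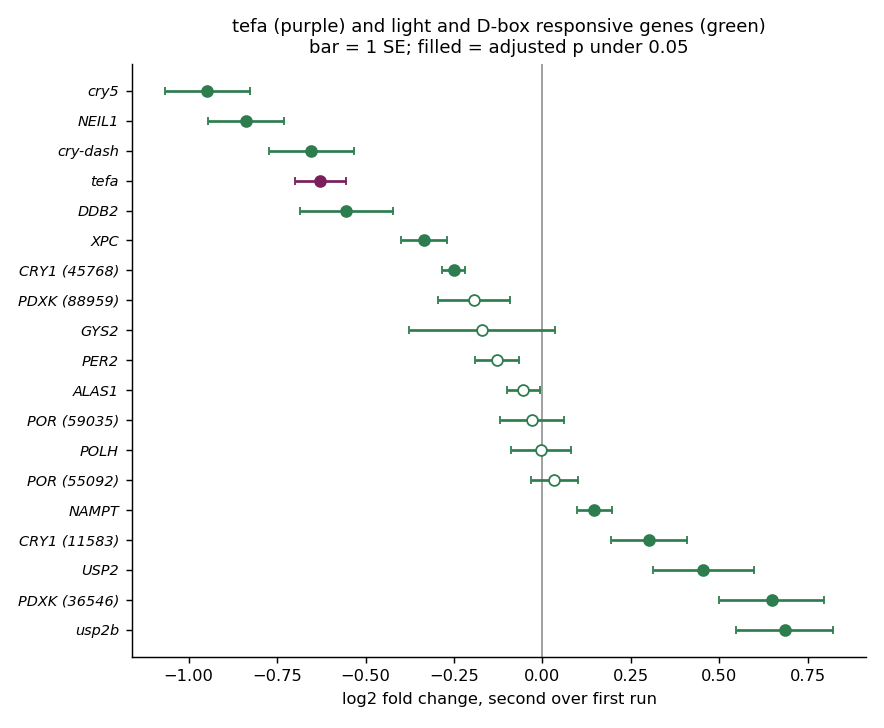
Log2 fold change between the second and first run of title numbers (horizontal axis, bars of 1 SE) for tefa in purple and the 18 tested light and D-box responsive genes in green, with the last digits of the gene identifier where 2 genes share a symbol; filled points have an edgeR adjusted p under 0.05. The gene tefa, at -0.63, stands between cry-dash at -0.65 and DDB2 at -0.55 at the lower end, and usp2b at 0.68 stands at the upper end.

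The core of the clock moved with the run as well. All 6 tested clock drivers were higher in the second run by edgeR, with npas2 at a log2 fold change of 0.78 (adjusted p = 6.02e-05). The CLOCK copies were at 0.38 (ENSDARG00000003631, adjusted p = 4.32e-05) and 0.56 (ENSDARG00000011703, adjusted p = 0.012), BMAL1 (ENSDARG00000035732) at 0.42 (adjusted p = 0.00083) and bmal2 at 0.39 (adjusted p = 0.0048). The period gene PER1 (ENSDARG00000056885) was higher by 0.52 (adjusted p = 0.034). Of the nuclear receptor list 4 of 10 were higher and none lower, namely RORB at 0.49 (adjusted p = 0.00024), nr1d4a at 0.51 (adjusted p = 0.0058), nr1d2a at 0.72 (adjusted p = 0.0086) and rorcb at 0.51 (adjusted p = 0.0097). Among the other clock regulators ciarta was higher (0.48, adjusted p = 0.020), and the repressor BHLHE40 was lower (-0.23, adjusted p = 0.019). Of 12 glucocorticoid responsive genes 3 were higher, KLF9 at 1.19 (adjusted p = 0.011), zbtb16b at 0.42 (adjusted p = 0.0025) and the PER1 copy already given, and the median of that list was 0.275 against -0.0096 over all genes. The part of these shifts in the D-box factor values was not tested.

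Variation between fish of a single group and run was described over 26 libraries after centring log2 CPM within group and run. Of 36 pairs among the 9 genes, 3 had a Pearson correlation with an adjusted permutation p under 0.05, and dbpa with dbpb was the one pair that also passed by Spearman's rho. For dbpa and dbpb, Pearson's r was 0.800 and rho 0.684 (permutation p adjusted over 36 pairs 0.0014 and 0.027). Without the 2 libraries farthest from the dbpa median r was 0.689, with the centring over all 26 libraries kept. Without replicate 6 of the 3.75 nM group, with centring redone, r was 0.840. Without the 9 libraries with high tissue scores r was 0.834 over 17 libraries, and the permutation p adjusted over 36 pairs was 0.088. The DBP correlation was thus as large without those libraries and no longer passed. In that fit the centring fixes replicate 2 of the 3.75 nM group at 0, as the only first-run library left there.

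The repressors were correlated less firmly. For nfil3-5 and nfil3-6 r was 0.823 and rho 0.657 (permutation p adjusted over 36 pairs 0.033 and 0.069). Without the 2 farthest libraries r was 0.675, but those values were still centred with replicate 6 included. Without replicate 6 and with centring redone, r was 0.531 (permutation p adjusted over 36 pairs 0.196), so the call rested on that library. For nfil3 and nfil3-5 r was 0.728 and rho 0.543 (permutation p adjusted over 36 pairs 0.033 and 0.069), and without replicate 6 r was 0.435 (adjusted permutation p = 0.196). The correlations of tefa with the other 8 genes lay between -0.558 and -0.313, and none passed (permutation p adjusted over 36 pairs from 0.260 to 0.440). Without replicate 6 they lay between -0.526 and 0.088, and those with the NFIL3 genes changed sign, to 0.071 for nfil3, 0.020 for nfil3-5 and 0.088 for nfil3-6, again with no call.

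**Figure D5:**
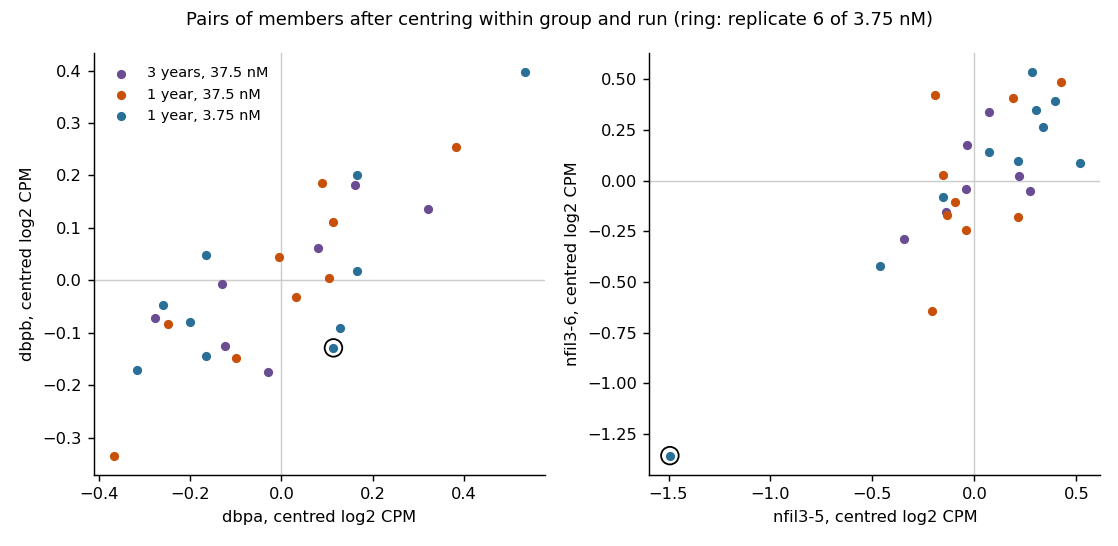
Log2 CPM centred within group and run for dbpa (horizontal) against dbpb (vertical), and nfil3-5 (horizontal) against nfil3-6 (vertical), with 1 point for each of 26 libraries coloured by group and a ring around replicate 6 of the 3.75 nM group. The DBP points follow a line (r = 0.800), and the ringed library lies alone at the lower left of the NFIL3 panel.

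The genes whose pattern was most like each D-box factor were ranked by Pearson's r of the same centred values over 26 libraries. The 14068 genes ranked had a mean log2 CPM of at least 1. Genes named only by a clone or an identifier, or with a symbol ending in a point and a number, were left out. The libraries share their depth and makeup in the centred values, so r is given as a description. For nfil3-5 the nearest were rorcb (0.908), cry3b (0.884) and UCP2 (0.839), and without replicate 6 r was 0.635 with rorcb, 0.663 with cry3b and 0.584 with UCP2. For nfil3-6 they were usp2b (0.892), KLF9 (0.861) and FKBP5 (0.858), and without replicate 6 r was 0.794 with usp2b, 0.654 with KLF9 and 0.664 with FKBP5. For nfil3 they were IMPDH1 (0.761), nfil3-5 (0.728) and TXNL1 (0.713), and without replicate 6 r was 0.532 with IMPDH1, 0.435 with nfil3-5 and 0.577 with TXNL1.

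Among the activators, tefa was nearest to IRF8 (0.905), vsir (0.848) and PTPN6 (0.817), and without replicate 6 r was 0.840 with IRF8, 0.791 with vsir and 0.727 with PTPN6. IRF8 is on the microglia and macrophage list, of which 1 of 20 genes was higher and 1 lower between the runs by edgeR. With age the log2 fold change was 0.96 for IRF8 (edgeR adjusted p = 0.0031) and 0.19 for tefa (adjusted p = 0.491). These are differences between groups, which the centred values leave out. The part of microglia and macrophages in the tefa values was not tested. For dbpa the nearest were ciartb (0.861), MAP2K1 (0.846) and NRGN (0.839), and for dbpb CYTH1 (0.896), HOMER1 (0.852) and CAMKV (0.852). For tefb they were RAD54L2 (0.760), PLEKHM1 (0.745) and foxo3b (0.739), for hlfa DHPS (0.777), casp8ap2 (0.711) and STAG2 (0.701), and for HLF HIVEP1 (0.774), STK35 (0.749) and sxph (0.732). These 3 factors had the lowest leading values among the activators.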

How the data were processed

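RNA was extracted from zebrafish brain, and per the labels' protocols libraries came from the Illumina TruSeq kit v2. That kit is not stranded, so reads of overlapping genes cannot be told apart. The submitters' processing notes name STAR 2.4.1d, featureCounts 1.4.6-p4, CASAVA 1.8.2 and the genome build GRCz10. The deposited count tables hold whole-number counts per Ensembl gene, not normalized; the deposited tables named RPKM were not used. All sample columns were mapped by title. Gene symbols were available for 26269 of 32105 genes (81.8%).

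The whole table was fitted with edgeR 4.0.16 in R 4.3.3 (TMM, filterByExpr, robust quasi-likelihood F test), with Benjamini-Hochberg adjustment over all genes tested and a threshold of 0.05. DESeq2 1.42.0 and limma 3.58.1 (voom) were alternatives, and the scripts were tested on simulated data. Intervals are 95% confidence intervals of the fitted log2 fold change, with SE estimated from the variation between libraries. They do not give the range of single libraries. A CPM of 1 equals 20.6 counts in the smallest library. Centred log2 CPM used a prior count of 2 and 100000 permutations within group and run. Named genes were all D-box factors, for each the 3 genes of largest r, and from each clock, D-box and glucocorticoid list up to 5 genes past the threshold, or the 2 with the smallest p if none passed; DDB2, USP2, PDXK, NAMPT, PER2 in the run comparison and IRF8 in the age comparison were added after their values were seen. Some genes that this rule selects in the run comparison are not reported here. List scores are mean log2 CPM. The members and lists were chosen with earlier results of these data known. No sequence is shown.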

Additional observations from a re-analysis of the deposited data

Results flagged for a closer look

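Dixon's criterion at the 95% level was applied to 27 sets of values, each of 1 gene in 1 group with both runs together. Of these sets 3 held a value far from the others, and chance flags about 1 in 20. The sets share libraries, so they are not independent. The nfil3-5 level of 405.3 CPM in replicate 7 of the 1 year 37.5 nM group was the highest there, with the next at 317.7 CPM. Replicate 7 of the 3.75 nM group had the highest dbpa, 47.37 CPM with the next at 35.4 CPM, and the highest dbpb, 60.18 CPM with the next at 50.5 CPM. Both DBP copies were thus high in the same library. These 3 values lay in the second run, and no cause was tested.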

How the results depend on the processing

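Against 10 genes called by edgeR between concentrations, DESeq2 called 54, a fit over all 26 libraries 18 and the run covariate 24. The second run alone called 0 (2454 at an unadjusted p under 0.05), as did the fit without high tissue scores (2061). Leaving out each library gave 2 to 12 genes and 0 D-box factors. D-box factors called rose to 2 with DESeq2, 1 with the fit over all libraries (nfil3-5), 1 with the run covariate (nfil3) and 1 in the first run alone (nfil3-5). The run covariate without replicate 6 of the 3.75 nM group, chosen after seeing the data, called 40 genes and 2 D-box factors. The small dbpb difference changed sign to -0.0015 with voom, -0.041 with the run covariate (-0.083 without replicate 6), -0.37 in the first run and -0.033 without high tissue scores, and ran from -0.071 to 0.059 over left-out libraries. HLF changed sign to -0.051 in the second run and -0.11 without high tissue scores, and ran from -0.015 to 0.13.

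With age, DESeq2 called 2541 genes, the first run alone 16, the fit without high tissue scores 336, and leaving out each library 942 to 2156, against 1549. No alternative called a D-box factor with age. Signs changed in the first run for nfil3-5 (-0.17), nfil3-6 (-0.044), dbpa (0.032) and dbpb (0.23), in the second run for HLF (0.011) and without high tissue scores for nfil3-5 (-0.090). Over left-out libraries hlfa ran from -0.038 to 0.074, HLF from -0.21 to 0.011 and nfil3-5 from -0.039 to 0.12.

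Between runs, single groups called fewer than the 4661 genes and 6 D-box factors of all libraries: 129 genes and 3 at 1 year and 37.5 nM, 0 and 0 at 3 years (3995 genes and 5 D-box factors at an unadjusted p under 0.05), and 243 and 1 at 3.75 nM, or 208 and 2 without its replicate 6. The fit without high tissue scores called 1506 genes. DESeq2 called 8 D-box factors and voom 5. Leaving out each library called 5 to 8 D-box factors and 3862 to 4759 genes, with 8 D-box factors without replicate 6 of the 3.75 nM group. In 1 year 37.5 nM fish nfil3 changed sign to 0.030. Correlated pairs at an adjusted p under 0.05 were 3, against 21 when centred within group only, 0 of 36 without high tissue scores (6 unadjusted) and 1 without replicate 6. No paired analysis was possible because the labels give the groups no shared replicate numbers. The cause of these changes was not tested.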
